A study of Mus musculus with 3 samples.

Results

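The Ly6 family proteins of skin, 8 genes of 21877 measured, were followed across development of the skin in FVB, a laboratory mouse strain. Whole skin was taken before birth at embryonic day 18.5 (E18.5), on day 3 after birth (P3) and from adults of 10 weeks. The members were taken by gene name: Slurp1, Ly6d, Lypd3 and Ly6g6c, known from keratinocytes; Ly6a, Ly6c1 and Ly6e, known from stromal, vascular and immune cells; and Ly6k, placed in neither group. All 8 were found in the tables of all 3 ages, and all 8 reached 1 FPKM at 1 or more of them. Each age has 1 value per gene, headed as an average, although the design text of the series counts 2 biological replicates for each. No spread between animals was therefore at hand, no difference below could be tested against replicate error, and neighbours in any order of levels cannot be separated by their spread. No genotype, treatment or sex is given in the labels used here, and the RNA is of the whole tissue and of no sorted cell type. In such bulk tissue, fewer cells of a type and less RNA per cell cannot be told apart.

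Proteins of the Ly6/uPAR family are small and share a fold of 3 loops held together by disulphide bridges. Most are tethered to the outer face of the cell membrane by a glycosylphosphatidylinositol (GPI) anchor, and a few, among them Slurp1, are secreted. In skin, one branch of the family is made by keratinocytes on their way from the basal to the cornified layer, and another marks vessels, blood cells and fibroblasts. Secreted Slurp1 and the membrane-bound Lynx1 are known to modulate nicotinic acetylcholine receptors.

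Of the 8 members, 6 lie on mouse chromosome 15 within one stretch of related genes. The stretch also holds Ly6c2, a near copy of Ly6c1, and the first 90 coding bases of both are shown because the copies bear on how the Ly6c1 level can be read. Both sequences are from GENCODE transcripts of build GRCm38, run 5′ to 3′ on the coding strand from the start codon, and carry capitals at the bases that differ.
Ly6c1: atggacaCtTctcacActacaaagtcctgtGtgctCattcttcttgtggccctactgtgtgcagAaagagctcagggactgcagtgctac
Ly6c2: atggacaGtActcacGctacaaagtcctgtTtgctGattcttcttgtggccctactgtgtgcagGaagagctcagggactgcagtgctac
The stretch holds 6 differences, and the whole reading frame of 396 bases holds 9, so that the frames are 97.7% identical. Ly6a is less close, with a reading frame 82.0% identical to that of Ly6c1 and 86.4% identical to that of its neighbour Ly6i. Over whole transcripts, 36.7% of the windows of 50 bases in Ly6c1 also occur in another gene, 31.7% in Ly6c2. The share is 8.05% for Ly6a, spread over 4 genes. For Lypd3 and Ly6k it is 8.13% and 29.2%, each with 1 other gene, Gm26550 and Gm17189. Windows were matched on either strand, and the strand of a match was not recorded. No window of Slurp1, Ly6d, Ly6g6c or Ly6e was shared. How reads that match several genes were divided, and whether strand was used, is not given in the sources used here. The levels of Ly6c1, Ly6a, Lypd3 and Ly6k carry that uncertainty.

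Promoters of Lypd3, Ly6g6c and Ly6c1 were in the RefSeq promoter table, which thus matched 3 of the 8 members. They are shown because 2 of these genes were higher at P3 and the other was lower. Each runs from 250 bases before the start of transcription to 50 bases after it, 5′ to 3′ on the gene's own strand, in build GRCm38.p6. Capitals mark matches to the TATA box (TATAAA) and the GC box (GGGCGG), both strands searched.
Lypd3, chr7:24636320-24636619, plus strand: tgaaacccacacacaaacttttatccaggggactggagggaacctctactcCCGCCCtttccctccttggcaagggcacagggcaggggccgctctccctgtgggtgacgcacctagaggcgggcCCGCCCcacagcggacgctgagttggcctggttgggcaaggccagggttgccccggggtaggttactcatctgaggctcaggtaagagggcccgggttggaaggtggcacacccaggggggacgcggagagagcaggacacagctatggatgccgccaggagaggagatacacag
Ly6g6c, chr17:35067075-35067374, plus strand: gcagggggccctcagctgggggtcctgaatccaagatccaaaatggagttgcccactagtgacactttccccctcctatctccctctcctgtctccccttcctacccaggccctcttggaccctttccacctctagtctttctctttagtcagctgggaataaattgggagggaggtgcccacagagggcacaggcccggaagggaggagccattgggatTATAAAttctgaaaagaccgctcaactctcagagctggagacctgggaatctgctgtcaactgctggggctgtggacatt
Ly6c1, chr15:75048788-75049087, minus strand: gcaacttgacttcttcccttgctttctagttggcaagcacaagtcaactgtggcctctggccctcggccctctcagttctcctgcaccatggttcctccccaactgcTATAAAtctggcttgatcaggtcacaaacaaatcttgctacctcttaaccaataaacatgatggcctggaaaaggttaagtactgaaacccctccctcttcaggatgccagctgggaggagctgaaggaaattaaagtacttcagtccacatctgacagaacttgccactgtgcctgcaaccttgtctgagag
The table gives 2 starts for Ly6c1, and the upstream one is shown. The Ly6g6c window holds a TATA box that begins at -30 from the start, and the Ly6c1 window holds one at -143, a match found in 13.6% of the 32851 promoters in the table. The Lypd3 window holds 2 GC boxes, a motif present in 35.7% of promoters, and no TATA box. G and C make up 64.0% of the Lypd3 window, 55.3% of the Ly6g6c window and 49.0% of the Ly6c1 window, against a median of 52.7%. The CCAAT box (37.4% of promoters) matched once in Ly6c1 and at 2 places in Ly6g6c, and the E-box CANNTG (72.3%) matched in each of the 3 windows. The letters of AP-1 (TGANTCA, 7.81%), the interferon elements GAS (TTCNNNGAA, 8.30%) and ISRE (TTTC and TTTC with 2 bases between, 3.44%), and the half-site of the p53 family (8.36%) were in none of these windows, all searched on both strands. These matches are descriptions of letters and say nothing of binding.

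The values are FPKM, fragments scaled by transcript length and by the size of the library, so that genes can be set side by side per length. Differences compare log2(FPKM + 1) between ages, the later minus the earlier, which understates the change of low genes. Genes that stayed under 1 FPKM at every age were left out, and "higher" or "lower" without a value means a difference of at least 2-fold on this scale. From 12886 to 13779 genes reached 1 FPKM at an age. The ages also differed in sex-linked genes: Xist, the RNA of the inactive X chromosome, stood at 0.0433 FPKM at E18.5, 64.6 FPKM at P3 and 73.0 FPKM at 10 weeks, and Y-linked Eif2s3y at 42.1 FPKM, 0.0838 FPKM and a listed 0. Age and sex cannot be told apart between the E18.5 library and the later ones. Krt14 and Krt5, the keratins of basal keratinocytes, stood between 646 and 2638 FPKM at every age. Skeletal muscle markers summed to 3731 FPKM at E18.5, 314 FPKM at P3 and 19065 FPKM at 10 weeks, with all 9 above 1 FPKM at 1 or more ages.

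At P3, the 4 keratinocyte members stood higher than at E18.5, and 2 of the 3 stromal and immune members stood lower. Over all genes compared, 9.56% were higher at P3 (1401 of 14653) and 9.42% were lower (1380). Among all 8 Ly6 members 4 were higher and 2 were lower. The median was 1.94 for the keratinocyte members and -1.23 for the stromal and immune members, against 0.03 for all genes.

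Between P3 and 10 weeks the 2 groups moved the other way. All 3 stromal and immune members were higher at 10 weeks and 3 of the 4 keratinocyte members were lower, against 19.8% of all genes higher (2909 of 14655) and 9.98% lower (1462). The median difference, 10 weeks over P3, was 4.34 for the stromal and immune members and -1.92 for the keratinocyte members, and 0.14 for all genes. Both comparisons use the same P3 value, so that an error in it would enter both with opposite sign.

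With 10 weeks set against E18.5, 5 of the 8 members were higher and 0 were lower, beside 16.1% of all genes higher (2358 of 14659) and 6.92% lower (1014). The 5 were Ly6a, Ly6c1, Ly6e, Ly6g6c and Ly6k. The stromal and immune members had a median difference of 2.65 and the keratinocyte members one of -0.22, with 0.22 for all genes. The balance of all genes depended on the scaling. For P3 over E18.5, lower genes outnumbered higher ones with upper-quartile scaling (1113 higher and 1833 lower), with median-of-ratios scaling (1235 and 1629) and in TPM (1504 and 1720). For 10 weeks over E18.5, upper-quartile scaling left a near balance of 1607 higher and 1528 lower. The medians of all genes with upper-quartile scaling were -0.13 for P3 over E18.5, -0.02 for 10 weeks over P3 and -0.14 for 10 weeks over E18.5. No member changed the sign of a difference under any scaling tried.

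**Figure D1:**
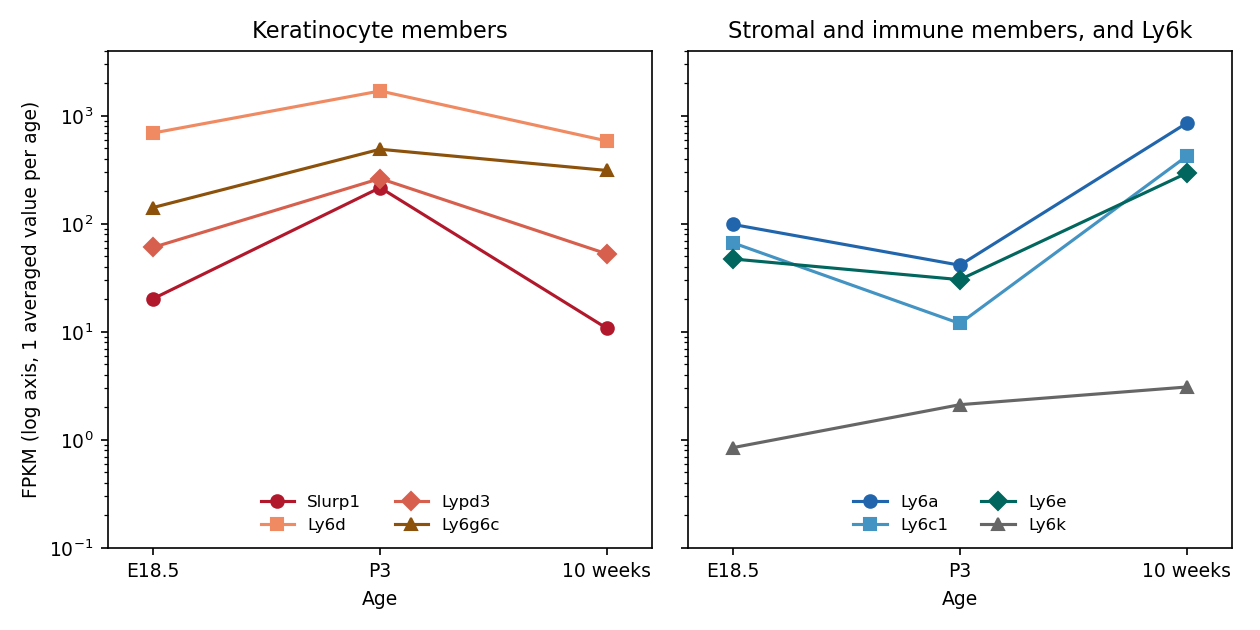
FPKM (log axis) of each Ly6 member at E18.5, P3 and 10 weeks, 1 averaged value per age, with the keratinocyte members on the left and the stromal and immune members and Ly6k on the right. The 4 keratinocyte members peak at P3 (216 to 1697 FPKM), where Ly6a, Ly6c1 and Ly6e have their lowest values (11.9 to 41.4 FPKM).

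Slurp1 (chromosome 15, 74557074 to 74558456, mm9) encodes a secreted protein of late keratinocyte differentiation, and loss of its human counterpart causes Mal de Meleda, a thickening of the skin of palms and soles. It stood at 20.3 FPKM at E18.5, 216 FPKM at P3 and 10.8 FPKM at 10 weeks. The P3 library alone was high. The P3 level was 10.7-fold that at E18.5 and 20.1-fold that at 10 weeks in FPKM, and the log2 differences were 3.35 for P3 over E18.5 and -4.21 for 10 weeks over P3. Slurp1 thus had the widest swing of the 4 keratinocyte members, and its place among all genes, counted from the highest, moved between 3787 at E18.5, 376 in P3 skin and 7398 at 10 weeks. Some genes moved further: 125 had a larger rise to P3 and 108 a larger fall from P3 to 10 weeks. The 10-week level was lower than at E18.5 by less than 2-fold (-0.86), and passed 2-fold under 3 other scalings, at -1.06 with median-of-ratios scaling, -1.24 with upper-quartile scaling and -1.01 in TPM.

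Ly6d (chromosome 15, 74592486 to 74593997) encodes a GPI-anchored antigen of keratinocytes that also marks early B lineage cells. Its level was 693 FPKM at E18.5, 1697 FPKM at P3 and 585 FPKM at 10 weeks. It was the most abundant member at E18.5 and P3, and place 55 among all genes at P3. The differences were 1.29 for P3 over E18.5 and -1.54 for 10 weeks over P3, both past 2-fold, while 10 weeks over E18.5 came to -0.24. Its level as a share of that of Krt14, the keratin of basal keratinocytes, was 72.8% in E18.5 skin, 69.6% in P3 skin and 90.5% in adult skin. B cell markers were near the floor of the tables: 1 of 8 reached 1 FPKM at any age, their summed level was 1.65 FPKM at E18.5, 0.863 FPKM at P3 and 2.24 FPKM at 10 weeks, and 2 of them were listed at 0 at E18.5.

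Lypd3 (chromosome 7, 25421589 to 25426137), also named C4.4A, encodes a GPI-anchored glycoprotein of suprabasal keratinocytes. It had 60.5 FPKM at E18.5, 263 FPKM at P3 and 52.6 FPKM at 10 weeks. As with Ly6d, E18.5 and 10 weeks lay close together and P3 stood above both. The P3 level was 4.34-fold that at E18.5 and 4.99-fold that at 10 weeks, with differences of 2.1 for P3 over E18.5, -2.30 for 10 weeks over P3 and -0.20 for 10 weeks over E18.5.

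Ly6g6c (chromosome 17, 35204270 to 35206993) lies in the class III region of the major histocompatibility complex. It stood at 141 FPKM at E18.5, 489.9 FPKM at P3 and 312 FPKM at 10 weeks. Its adult level stayed nearer to the P3 level than that of any other keratinocyte member: the difference was -0.65 for 10 weeks over P3 and 1.13 for 10 weeks over E18.5. That adult difference lies close to the 2-fold limit and came to 0.92 with median-of-ratios scaling, 0.73 with upper-quartile scaling and 1.00 in TPM, just under the limit. The P3 level was 3.46-fold that at E18.5 (1.78 on the log2 scale).

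Set against Ly6d, the other keratinocyte members did not keep constant proportions. Slurp1 reached 2.93% of the Ly6d level in E18.5 skin, 12.7% in P3 skin and 1.84% in adult skin. Lypd3 reached 8.74%, 15.5% and 9.0% at the same ages. Ly6g6c came to 20.4% in E18.5 skin, 28.9% in P3 skin and 53.3% in adult skin, so that it gained on Ly6d at each later age.

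Ly6a (chromosome 15, 74825307 to 74828318), known as Sca-1, marks blood stem cells, vessel cells and subsets of fibroblasts, and can be induced by interferon. Its level was 98.7 FPKM at E18.5, 41.4 FPKM at P3 and 855 FPKM at 10 weeks. The adult library was the high one and P3 the low one. At 10 weeks the level was 20.7-fold that at P3 and 8.67-fold that at E18.5, with differences of 4.34 and 3.10, and P3 over E18.5 came to -1.23. It was the most abundant member at 10 weeks, place 129 among all genes, and 140 genes had a larger rise from P3 to 10 weeks.

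Ly6c1 (chromosome 15, 74875445 to 74879260) encodes an antigen of endothelial cells and T cells, and its near copy Ly6c2 is known from monocytes. Ly6c1 stood at 66.7 FPKM at E18.5, 11.9 FPKM at P3 and 423 FPKM at 10 weeks. It had the deepest trough and the steepest rise of the 8 members: its 10-week level was 35.4-fold that at P3, a difference of 5.03, which 75 genes exceeded. The differences were -2.39 for P3 over E18.5 and 2.65 for 10 weeks over E18.5. Ly6c2 was listed at 5.97 FPKM at E18.5, 0.139 FPKM at P3 and 2.94 FPKM at 10 weeks. Summed over both copies, the level was 72.6 FPKM at E18.5, 12.1 FPKM at P3 and 426 FPKM at 10 weeks. The differences of this sum were -2.49 for P3 over E18.5, 5.03 for 10 weeks over P3 and 2.53 for 10 weeks over E18.5. The sum avoids the division of reads between the copies. It does not restore reads that may have been left out because they match several genes.

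Ly6e (chromosome 15, 74785481 to 74790335) is widely expressed and interferon-inducible, and serves as the receptor of syncytin-A in the mouse placenta. It had 47.2 FPKM at E18.5, 30.4 FPKM at P3 and 294 FPKM at 10 weeks. Its dip at P3 stayed within 2-fold (-0.62). The 10-week level was 9.68-fold that at P3 (3.23) and 6.23-fold that at E18.5 (2.61).

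Ly6k (chromosome 15, 74627304 to 74630398), known from testis and sperm, was low throughout, at 0.846 FPKM at E18.5, 2.11 FPKM at P3 and 3.08 FPKM at 10 weeks. The difference was 1.14 for 10 weeks over E18.5, 0.75 for P3 over E18.5 and 0.39 for 10 weeks over P3 on the log2(FPKM + 1) scale, while the FPKM ratio of P3 over E18.5 was 2.50. At such levels the value depends on the pseudocount: 10 weeks over E18.5 came to 0.47 with 5 added instead of 1, and P3 over E18.5 came to 1.23 with 0.1 added. The scaling mattered as well: 10 weeks over E18.5 came to 0.90 with upper-quartile scaling, 1.01 with median-of-ratios scaling and 1.24 in TPM.

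**Figure D2:**
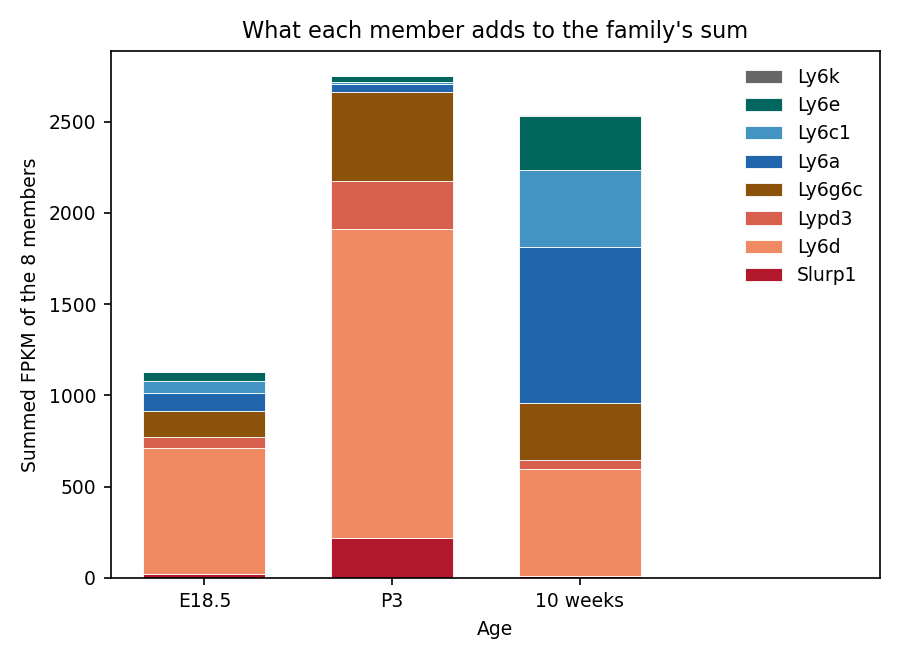
Summed FPKM of the 8 Ly6 members at each age, stacked by member. The sum is 1128 FPKM at E18.5, 2751 FPKM at P3 and 2535 FPKM at 10 weeks, and the keratinocyte members hold 37.9% of it at 10 weeks, against 96.9% at P3.

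The summed level of the 8 members was 1128 FPKM at E18.5, 2751 FPKM at P3 and 2535 FPKM at 10 weeks. The P3 and 10-week sums of these 8 were thus close, though made up of different members. FPKM is scaled by the size of the library, so the sums are not amounts of RNA in the skin. The other listed family genes, not in these sums, came to 173 FPKM at E18.5, 710 FPKM at P3 and 215 FPKM at 10 weeks. Of the sum of the 8, the keratinocyte members made up 81.1% in E18.5 skin, 96.9% in P3 skin and 37.9% in adult skin. Their sum over that of the stromal and immune members came to 4.30 in E18.5 skin, 31.8 in P3 skin and 0.610 in 10-week skin. Within the second group the proportions moved as well: Ly6c1 was 0.675 of the Ly6a level in E18.5 skin, 0.289 in P3 skin and 0.494 in adult skin.

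**Figure D3:**
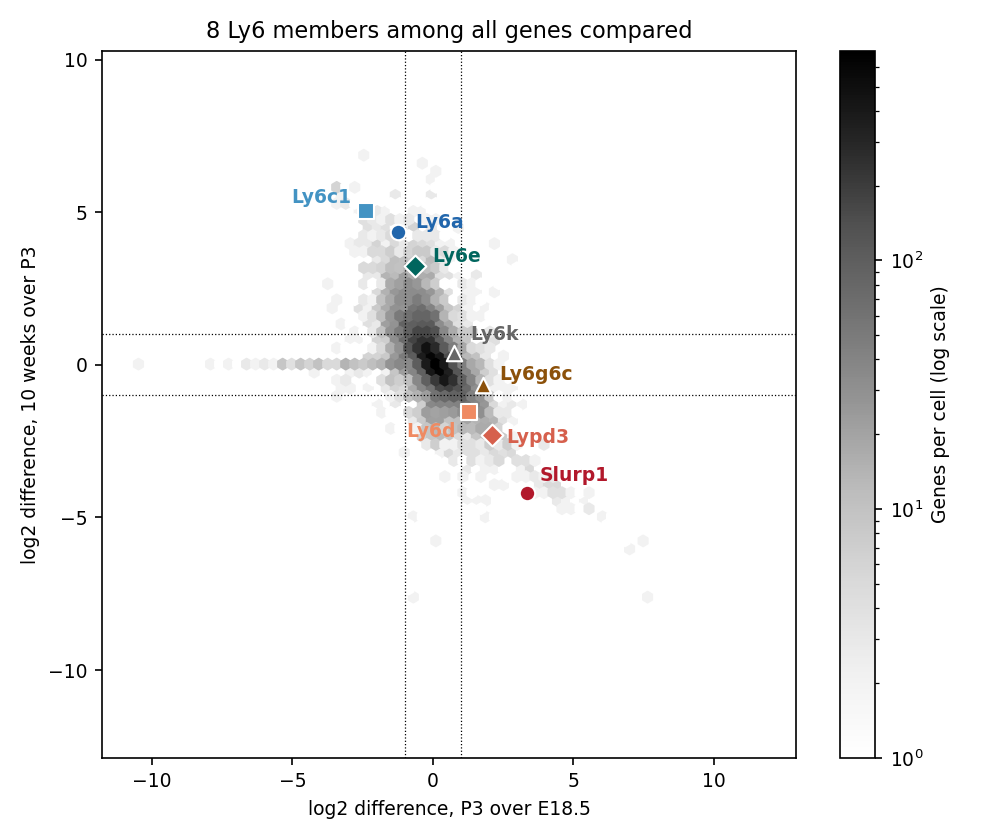
The log2 difference of P3 over E18.5 (x axis) against that of 10 weeks over P3 (y axis) for the 8 Ly6 members, over the density of all genes compared, with dotted lines at 2-fold; the axes share the P3 value. Slurp1 (3.35, -4.21) and Ly6c1 (-2.39, 5.03) lie at opposite corners. The region at the left near 0 on the y axis includes genes at or near 0 FPKM at both later ages, such as Eif2s3y (-5.31, -0.12). It also includes genes well above 0 FPKM at both, such as Twist2 (-2.12, -0.06).

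The rest of the Ly6/uPAR family was followed through a list of 29 entries, of which 27 were in the tables and 20 reached 1 FPKM. Ly6g and Ly6g2 were not matched. At P3 over E18.5, 8 of the 20 were higher and 3 were lower, with a median difference of 0.11, beside 9.56% and 9.42% of all genes. From P3 to 10 weeks, 5 were higher and 6 were lower (median 0.29), beside 19.8% and 9.98% of all genes. Between E18.5 and 10 weeks, 4 were higher and 2 were lower (median 0.40), beside 16.1% and 6.92%. The counts of higher genes in these last comparisons lie near the share over all genes. The 4 became 2 with median-of-ratios scaling. With a pseudocount of 5 the 5 became 2, the 4 became 2 and the 2 lower became 0.

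Several relatives had their highest level at P3. Slurp2 (listed as 2300005B03Rik), the secreted neighbour of Slurp1, had 6.63 FPKM at E18.5, 84.9 FPKM at P3 and 2.21 FPKM at 10 weeks, and its differences of 3.49 and -4.74 ran beside those of Slurp1. Ly6g6d, a neighbour of Ly6g6c, had 2.39 FPKM at E18.5, 101 FPKM at P3 and 4.89 FPKM at 10 weeks. This gave it the largest rise to P3 of the listed relatives (4.91), whereas Ly6g6c beside it rose by 1.78, so that Ly6g6d stood at 0.0169 of the Ly6g6c level in E18.5 skin, 0.206 in P3 skin and 0.0157 in adult skin. Lypd5 had 35.3 FPKM at E18.5, 234 FPKM at P3 and 37.7 FPKM at 10 weeks, and Pinlyp (listed as 2310033E01Rik) had 12.9 FPKM, 147 FPKM and 14.5 FPKM. Smaller peaks at P3 were seen in Ly6g6e (20.1, 51.8 and 31.2 FPKM at E18.5, P3 and 10 weeks), Ly6m (listed as 2010109I03Rik, 6.14, 29.2 and 8.95 FPKM) and Lypd6b (6.46, 18.0 and 6.55 FPKM).

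Other relatives were highest in the adult or the embryo. Lynx1, the membrane-bound modulator of nicotinic receptors, had 3.97 FPKM at E18.5, 4.60 FPKM at P3 and 18.6 FPKM at 10 weeks. Cd59a, which blocks the membrane attack complex of complement, had 11.3 FPKM at E18.5, 11.6 FPKM at P3 and 42.9 FPKM at 10 weeks, and its paralog Cd59b had 2.12, 1.27 and 5.55 FPKM. Plaur, the urokinase receptor, had 4.28 FPKM at E18.5, 2.51 FPKM at P3 and 5.63 FPKM at 10 weeks, with differences of -0.59 and 0.92 on the log2(FPKM + 1) scale between neighbouring ages. Gpihbp1, which holds lipoprotein lipase on capillary endothelium, had 46.9 FPKM at E18.5, 16.3 FPKM at P3 and 22.1 FPKM at 10 weeks. It shared the fall at P3 with Ly6c1 (-1.47) but did not pass 2-fold from P3 to 10 weeks (0.42).

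The nicotinic receptor subunits, through which Slurp1 and Lynx1 are known to act, were low. Of 16 listed, 4 reached 1 FPKM at any age, namely Chrna1, Chrnb1, Chrnd and Chrng, the subunits of the muscle receptor of the fetus. At P3 over E18.5, 3 of these 4 were lower and 0 were higher, with a median of -1.29. At such low levels a pseudocount of 5 left 0 lower and a median of -0.48. Chrng had 2.58 FPKM at E18.5, 0.0665 FPKM at P3 and 0.0255 FPKM at 10 weeks, and Chrnb1 had 3.71, 0.939 and 6.61 FPKM. Chrna7, the subunit best known as a target of Slurp1 in keratinocytes, had 0.108 FPKM at E18.5, 0.0925 FPKM at P3 and 0.164 FPKM at 10 weeks. The values of Chrna9 (0.552, 0.0238 and 0.0474 FPKM) and Chrna10 (0.0859, 0.0665 and 0.909 FPKM) were likewise under 1 FPKM.

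The enzymes that build and attach the GPI anchor, on which the membrane-bound members depend, moved little. All 27 listed genes were compared. At P3 over E18.5, 1 was higher (Pgap2, which remodels the lipid of the anchor, at 40.5 FPKM at P3 against 17.5 FPKM at E18.5) and 0 were lower, with a median of 0.08. From P3 to 10 weeks, 1 was higher (Pigp, 75.1 FPKM at 10 weeks against 35.8 FPKM at P3) and 1 was lower (Pgap2, 19.4 FPKM against 40.5 FPKM), with a median of 0.13. Between E18.5 and 10 weeks there were 0 in either direction (median 0.29). Both calls from P3 to 10 weeks lie close to the limit: Pigp was lost with median-of-ratios scaling, and Pigp and Pgap2 with a pseudocount of 5.

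The keratinocyte members were set beside marker lists of the layers of the epidermis and of the hair follicle. Basal markers had a median difference of 0.94 for P3 over E18.5, with 4 of 11 higher, suprabasal markers one of 1.82, with 9 of 10 higher, and cornified layer markers one of 1.87, with 11 of 11 higher. Hair shaft and inner root sheath markers moved most, with a median of 4.41 and 12 of 12 higher, and their summed level was 261 FPKM at E18.5, 5045 FPKM at P3 and 290 FPKM at 10 weeks. Krt1, Krt10, Flg2, Hrnr and Tchh have failed estimates at P3, and Hrnr also at E18.5, so these are not in the medians. From P3 to 10 weeks the medians were -0.71 for basal, -1.99 for suprabasal, -3.16 for cornified and -4.26 for hair markers, with 4 of 11, 9 of 10, 10 of 11 and 12 of 12 lower.

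Within these ranges the members took different places. Ly6d (1.29) lay above 7 of the 11 basal markers and below 8 of the 10 suprabasal markers at P3 over E18.5. Lypd3 (2.1) lay below 2 suprabasal and 3 cornified markers, Cdsn of the corneodesmosomes (328 FPKM at P3 against 52.8 FPKM at E18.5) among those above it. Slurp1 (3.35) lay above all 10 suprabasal markers, and of 11 cornified markers only Rptn stood above it (48.3 FPKM at P3 against 2.15 FPKM at E18.5). It lay below 11 of the 12 hair markers. From P3 to 10 weeks, Slurp1 (-4.21) lay below all 10 suprabasal markers and 9 of 11 cornified markers, while Tgm3 (0.508 FPKM at 10 weeks against 46.4 FPKM at P3) and Casp14 (8.39 FPKM against 286 FPKM) fell further. Ly6g6c (-0.65) lay above all 10 suprabasal markers and above 10 of the 11 cornified markers. The part that the makeup of the tissue has in these differences was not tested.

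**Figure D4:**
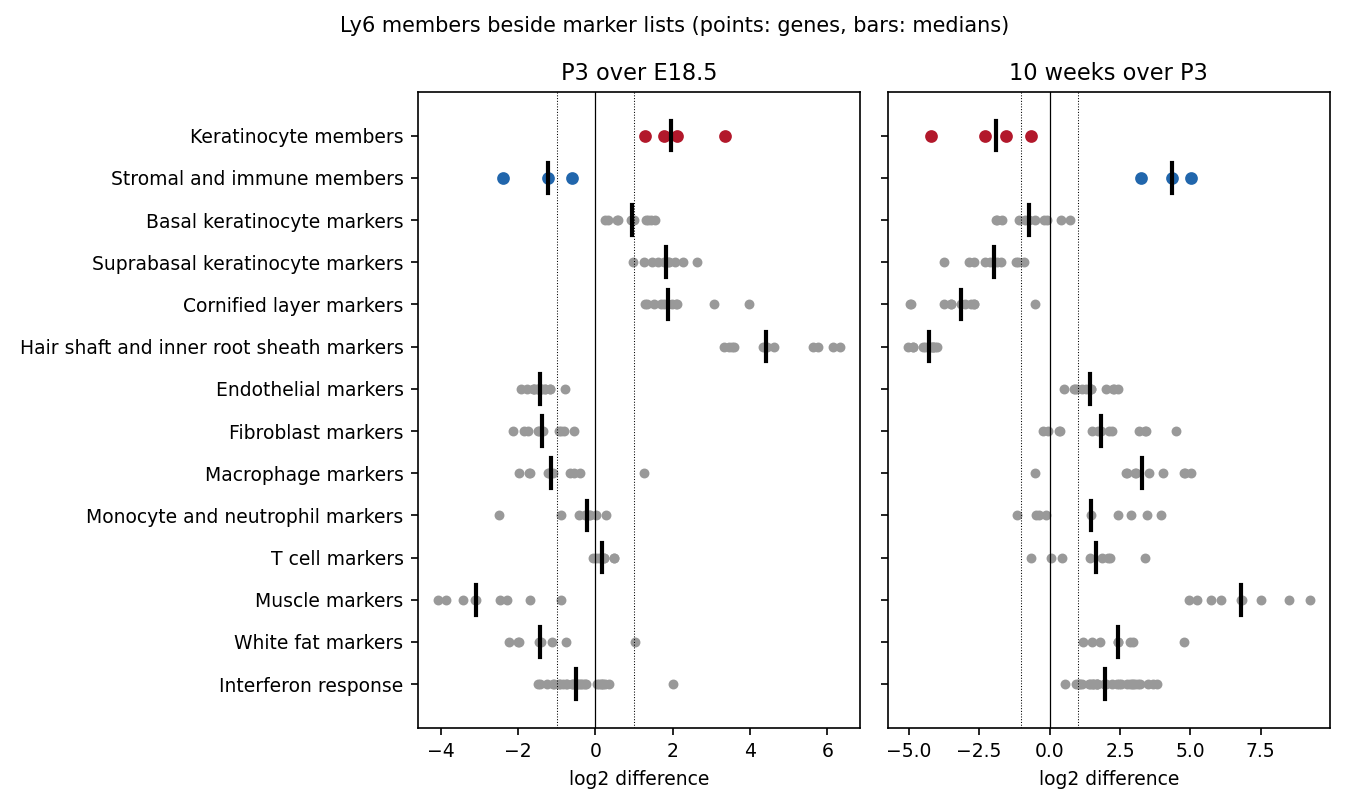
Log2 differences of single genes in the Ly6 members and in the marker lists, for P3 over E18.5 (left) and 10 weeks over P3 (right), with 1 point per gene, a bar at each median and dotted lines at 2-fold. The medians of the keratinocyte and hair lists lie right of 0 at P3 over E18.5 and left of it at 10 weeks over P3. Those of the endothelial, fibroblast, macrophage, monocyte and neutrophil, muscle, white fat and interferon lists lie the other way, muscle furthest (-3.09 and 6.80). The T cell median lies right of 0 in both (0.17 and 1.65).

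The stromal and immune members were set beside the cells that are known to carry them. Endothelial markers had a median of -1.44 for P3 over E18.5, with 13 of 14 lower, 1.42 for 10 weeks over P3, with 10 of 14 higher, and -0.23 for 10 weeks over E18.5, with 2 of 14 higher. Their summed level was 324 FPKM at E18.5, 109 FPKM at P3 and 322 FPKM at 10 weeks. Ly6c1 fell further at P3 (-2.39) than each of the 14, and its difference from E18.5 to 10 weeks (2.65) exceeded each of them, the highest being Vwf at 1.21. Against Pecam1, a junction protein of endothelial cells, Ly6c1 stood at 1.20 of its level in E18.5 skin, 0.675 in P3 skin and 8.74 in adult skin.

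Fibroblast markers had a median of -1.39 for P3 over E18.5, with 8 of 12 lower, and 1.83 for 10 weeks over P3, with 9 of 13 higher. For 10 weeks over E18.5 it was 0.76, with 5 of 12 higher and 3 lower. Ly6a (4.34) exceeded 12 of the 13 at 10 weeks over P3. The exception was Pi16, carried by a subset of fibroblasts, at 15.3 FPKM at E18.5, 8.28 FPKM at P3 and 208 FPKM at 10 weeks (4.49). Cd34, shared by fibroblasts, vessels and blood progenitors, had 104 FPKM, 30.2 FPKM and 323 FPKM, so that Ly6a stood at 0.946 of its level in E18.5 skin, 1.37 in P3 skin and 2.64 in adult skin.

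Macrophage markers had a median of 3.29 for 10 weeks over P3, with 9 of 10 higher, and a summed level of 250 FPKM at E18.5, 145 FPKM at P3 and 1753 FPKM at 10 weeks. C1qb and C1qa, subunits of the first complement component, rose by 5.03 and 4.79, beside 5.03 for Ly6c1. Monocyte and neutrophil markers summed to 66.6 FPKM at E18.5, 49.9 FPKM at P3 and 231 FPKM at 10 weeks, and at 10 weeks over P3 5 of 9 were higher and 1 was lower. The monocyte receptor Ccr2 had 1.34 FPKM at E18.5, 1.02 FPKM at P3 and 30.3 FPKM at 10 weeks, whereas the neutrophil granule gene Camp had 19.8, 2.67 and 0.663 FPKM. S100a8 held much of the sum (20.1, 24.4 and 135 FPKM), and at 10 weeks over E18.5 5 of the 9 were higher and 2 lower. T cell markers summed to 7.46 FPKM at E18.5, 10.4 FPKM at P3 and 42.3 FPKM at 10 weeks. White fat markers were higher at 10 weeks than at P3 in 8 of 8 (median 2.43), and muscle markers in 9 of 9 (median 6.80). Which of these cells carried the Ly6 RNA was not tested.

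Because Ly6a and Ly6e are interferon-inducible, 30 genes of the interferon response were followed. At P3 over E18.5, 1 was higher and 5 were lower (median -0.50). The higher one was the transcription factor Irf7, with 16.3 FPKM at P3 against 3.29 FPKM at E18.5, and the largest falls were those of the tetherin gene Bst2 (9.49 FPKM against 28.5 FPKM) and of Rtp4 (0.937 FPKM against 4.23 FPKM). At 10 weeks over P3, 28 of 30 were higher and 0 were lower (median 1.96), led by the GTPase Gbp2 (37.6 FPKM against 1.76 FPKM) and the immunoproteasome subunit Psmb8 (83.5 FPKM against 5.64 FPKM). Between E18.5 and 10 weeks, 24 were higher (median 1.68). A pseudocount of 5 left 17 higher at 10 weeks over P3, 13 higher at 10 weeks over E18.5 (median 0.95) and 1 lower at P3 over E18.5. The list summed to 124 FPKM at E18.5, 86.8 FPKM at P3 and 581 FPKM at 10 weeks. Over all genes, 19.8% were higher at 10 weeks than at P3, and 16.1% were higher than at E18.5. Ly6a (4.34) and Ly6c1 (5.03) exceeded all 30 at 10 weeks over P3, and Ly6e (3.23) exceeded 27 of them. For 10 weeks over E18.5, 3 of the 30 lay above each of Ly6a (3.10), Ly6c1 (2.65) and Ly6e (2.61). Whether interferon had a part in the levels of these members was not tested.

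For each member the 3 genes with the nearest pair of differences were sought among the 9029 genes that reached 10 FPKM at any age. The measure was the distance in the plane of P3 over E18.5 and 10 weeks over P3, on the log2 scale and over only 3 ages. Slurp1 was nearest to 3 keratins of the hair follicle, Krt28 (27.5 FPKM at E18.5, 287 FPKM at P3 and 14.3 FPKM at 10 weeks, distance 0.03), Krt85 (0.12) and Krt73 (0.20). Only 7 genes lay within 0.5 of it. Ly6d was nearest to Limk2 (27.7, 69.3 and 23.7 FPKM, distance 0.03), Klrg2 and Tuft1, with 234 genes within 0.5. Lypd3 was nearest to 2310014L17Rik, Slc6a19 and Sdcbp2, with 64 genes within 0.5. Ly6g6c had 121 genes within 0.5, among the nearest Fam84a and the desmosomal cadherin Dsg3 (9.30, 35.1 and 24.3 FPKM).

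Ly6a was nearest to Pfkm, a phosphofructokinase of muscle (25.8 FPKM at E18.5, 10.1 FPKM at P3 and 196 FPKM at 10 weeks), the transglutaminase Tgm2 (19.5, 6.68 and 144 FPKM) and the complement protease C1s, with 28 genes within 0.5. Ly6c1 had 15 genes within 0.5, the nearest being Kbtbd10, Tmod4 of muscle thin filaments (13.6, 2.00 and 81.2 FPKM) and the macrophage lectin Clec10a (31.8, 5.67 and 177 FPKM). Ly6e was nearest to the transcription factor Cebpd (5.04, 2.93 and 37.2 FPKM), Cyp27a1 and Ggt5, with 90 genes within 0.5. Ly6k had 563 genes within 0.5, with Itm2b, Ahnak and Pim3 nearest. Among the members themselves, Ly6d and Ly6g6c (1.01) and Ly6d and Lypd3 (1.11) lay nearest, then Ly6a and Ly6e (1.26) and Ly6a and Ly6c1 (1.35), while Slurp1 and Ly6c1 lay 10.9 apart.

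On chromosome 15 the family genes run in one stretch of 883 kb from Psca (start 74545269) to Gpihbp1 (end 75428643) in mm9. It holds 23 rows of the tables, 17 of them family genes, and 17 rows reached 1 FPKM. In order these rows are Psca, 4930572J05Rik, Slurp1, Lypd2, Slurp2, Lynx1, Ly6d, D730001G18Rik, Ly6k, Ly6m, Ly6e, Ly6i, Ly6a, Ly6c1, Ly6c2, Ly6h and Gpihbp1. The other rows are Gml, Hemt1, Cyp11b1 and Cyp11b2, which lie between Ly6k and Ly6m, and Ly6f and 9030619P08Rik, which lie between Ly6c2 and Ly6h. From the start of Slurp1 to the end of Ly6d is 36.9 kb, Ly6d ends 191 kb before Ly6e, and the genes from Ly6e to Ly6c1 span 93.8 kb.

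The sign of the difference for P3 over E18.5 followed the order, with a break between Ly6m and Ly6e that was read from these values. Not all of these differences passed 2-fold, with 0.17 for Lynx1 and 0.32 for 4930572J05Rik, and their spread is unknown. Of the rows compared from Psca to Ly6m, each had a positive difference for P3 over E18.5 except Lypd2 (0.802 FPKM at P3 against 1.37 FPKM at E18.5, -0.39). From Ly6e to Gpihbp1, every row compared had a negative one, from -0.18 for Ly6i to -2.61 for Ly6c2. Some of these signs rest on values near the floor. Ly6i had 0.433 FPKM at E18.5 and 0.269 FPKM at P3, Ly6h had 0.423 FPKM and Ly6c2 0.139 FPKM at P3. In the first stretch, Psca had 0.0132 FPKM at E18.5 and 1.46 FPKM at P3. Ly6c2 and Ly6i also share sequence with Ly6c1 and Ly6a. At 10 weeks over P3 the order was less clean: from Ly6e on all were positive, but so were 4930572J05Rik (1.08), Lypd2 (1.37), Lynx1 (1.80) and Ly6k (0.39) in the first stretch. Lynx1 lies between Slurp2 and Ly6d, which fell by 4.74 and 1.54. D730001G18Rik, between Ly6d and Ly6k, had 1.5 FPKM at E18.5, 46.9 FPKM at P3 and 3.07 FPKM at 10 weeks, a larger rise to P3 (4.26) than that of any member. Lypd3 and Ly6g6c, on other chromosomes, shared the rise at P3 with most genes of the first stretch.

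**Figure D5:**
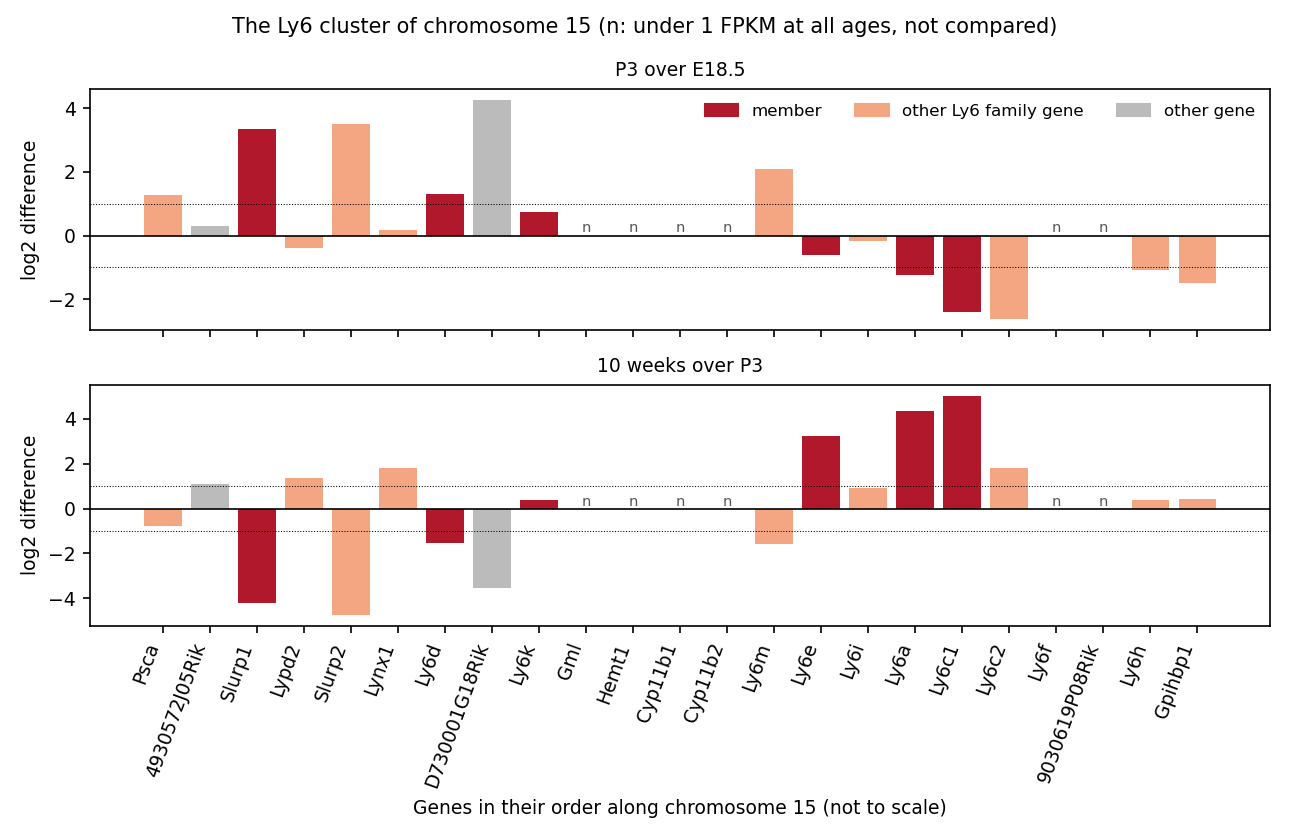
Log2 differences of the rows of the chromosome 15 Ly6 stretch in gene order, for P3 over E18.5 (top) and 10 weeks over P3 (bottom), with bars coloured by family membership, dotted lines at 2-fold and n for rows under 1 FPKM at all ages. The P3 over E18.5 values are above 0 up to Ly6m, Lypd2 excepted, and below 0 from Ly6e on.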

How the data were processed

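RNA was extracted from whole FVB skin with Trizol and libraries were made with an Illumina TruSeq kit, per the labels' protocols. The deposited values are FPKM per gene, 1 averaged column per age, per the file headers. The submitters' processing notes list TopHat2 2.0.7, Cufflinks 2.1.1 and build mm9. The sources used here do not give the annotation, the strand setting, the read numbers or how multiply matching reads were handled, so depth is unknown. A total of 3 values at E18.5 and 7 at P3 that bore a failure mark and a 0 were left out. Starts were raised by 1, since the RefSeq length of a gene equalled end minus start in 6271 of 19306 genes matched by symbol and exceeded it by 1 in 432.

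With 1 value per age no test was made; differences used a pseudocount of 1, a minimum of 1 FPKM and a 2-fold limit, in Python 3.11.15 with pandas 2.3.3 and numpy 2.4.6, and the script was tested on simulated data. The members and the 17 gene lists were chosen with earlier results of these data known. Named were all members, relatives with at least 5 FPKM, and from each list up to 2 genes with the largest changes; other genes of direct relevance were named after their values were seen. Motifs and shared windows of 50 bases were found in RefSeq promoters and GENCODE M21 transcripts. Alternatives were other scalings, pseudocounts, minimums and folds. One gene that the rule on nearest patterns names is not reported here.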

Additional observations from a re-analysis of the deposited data

How the results depend on the processing

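Across 165 differences of single members under other settings, 156 stayed on their side of the 2-fold limit, 5 dropped under it, 4 passed it and 0 changed sign. The 165 include settings that changed only the minimum FPKM. Such a setting cannot alter a difference, so part of the 156 was fixed in advance. The number of members higher at 10 weeks than at E18.5 was 4 with median-of-ratios scaling (1924 of 14625 over all genes). It was also 4 in TPM (2322 of 15203) and with a pseudocount of 5 (1274 of 14659). With upper-quartile scaling it was 3, beside 1607 of 14620 over all genes. It was also 3 at a 3-fold limit, beside 1183 of 14659. The number lower was 1 with median-of-ratios scaling (1238 of 14625 over all genes) and with upper-quartile scaling (1528 of 14620). It was also 1 in TPM (1302 of 15203) and at a 1.5-fold limit (1692 of 14659). At a 3-fold limit 1 member was lower at P3 than at E18.5, beside 586 of 14653 over all genes. Counts over all genes moved with the limit. At 1.5-fold, 2803 genes were higher and 2654 lower for P3 over E18.5, 4503 and 2599 for 10 weeks over P3, and 4178 and 1692 for 10 weeks over E18.5. At 3-fold the counts were 605 and 586, 1632 and 744, and 1183 and 572. A pseudocount of 5 gave 842 and 626, 1596 and 898, and 1274 and 561, and one of 0.1 gave 2155 lower for P3 over E18.5. Upper-quartile scaling gave 1528 lower for 10 weeks over E18.5. The median of all genes under median-of-ratios scaling was -0.06, 0.05 and 0.03 for the 3 comparisons in the same order. Apart from the change of limit itself, the cause was not tested. No paired analysis was possible because each age has 1 averaged value, and for the same reason no replicate could be left out. Depth is unknown, so the precision of low values such as those of Ly6k and the nicotinic receptor subunits cannot be stated.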
